A study of Danio rerio with 6 samples.

Results

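In RNA of the adult zebrafish telencephalon, 100 of the 32520 genes counted belong by name to the main families of axon guidance ligands and receptors. They are the rows whose Ensembl gene name marks a semaphorin, plexin, neuropilin, ephrin, Eph receptor, slit, robo, netrin, unc5, DCC or neogenin gene, 53 ligands and 47 receptors in 16 classes. Slitrk genes and the 4 netrin-G genes were not taken. The rule uses names and no measured value. One hemisphere was injured with a syringe needle, and polyadenylated RNA was sequenced at 5 days post lesion (dpl) from 3 injured and 3 uninjured (control) hemispheres, each as its own library. The study took the contralateral hemisphere as the uninjured control, so that the control tissue also comes from operated brains, while the labels do not say which libraries share a fish. Strain and sex are not given in the sources used here, and a hemisphere is a mixture of all its cell types.

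Axon guidance genes encode cues that attract or repel the growing tip of an axon, the growth cone, and the receptors that read them. Semaphorins signal through plexins, with neuropilins as binding partners for most secreted forms. Ephrins are bound to the membrane and meet Eph receptor tyrosine kinases on the next cell, with signals in both cells. Slits repel through Robo receptors, and netrins attract through DCC or repel through Unc5 receptors. In the adult brain many of these genes stay active in neurons and glia, and several also act in blood vessels and immune cells.

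Expression is given as CPM, read counts relative to library size after TMM scaling, and the values of replicates 1, 2 and 3 of a condition are listed in that order. CPM are not corrected for transcript length, so that levels are compared between libraries and not between genes, and the gene with the highest CPM of a class is only the one with most reads. Genes received 59675791 to 91663196 reads in a library, of which 0.558% to 0.590% were on the guidance genes. Log2 fold changes are injured over control, with their standard error (SE). The adjusted *p*-value (adjp) is that of edgeR's quasi-likelihood F-test with Benjamini-Hochberg adjustment over all 22558 genes tested, and genes with an adjp below 0.05 are called. Where the call of a guidance gene was lost without a single library, its adjp is given with the library left out in parentheses. For single genes of the other guidance lists and of the marker lists, these fits are not given. The study calls the 3 libraries of a condition biological replicates and processed each hemisphere separately, while the labels name no fish.

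Markers of the labelled tissue, among them *TBR1*, *emx3* and *EOMES*, had a summed level of 707 to 815 CPM in control and 700.5 to 744 CPM in injured hemispheres, and none of the 7 genes was called by edgeR, with 1 at an unadjusted *p*-value below 0.05 and 1 called by DESeq2. When edgeR used the replicate number as a block, as described below, *emx3* was called higher and a copy of *EOMES* lower. Their adjusted *p*-values in that fit were 0.00670 and 0.0115. Markers of other cells moved. Of 21 microglia and leukocyte genes tested, 17 were called higher and none lower, and their summed level was 371 to 445 CPM in control and 1572 to 2104 CPM in injured hemispheres. Of 19 neuronal genes, 8 were called lower and none higher, with 12054 to 12110 CPM in control and 10470 to 10929 CPM in injured hemispheres. For radial glia, 8 of 15 genes were called higher and none lower, with 5045 to 5301 against 5929 to 6473 CPM. Of the other lists, 6 of 10 oligodendrocyte genes (439 to 583 against 584 to 811 CPM) and 5 of 18 genes of skin, muscle and meninges (116 to 204 against 272 to 426 CPM) were called higher and none lower. With the block, the oligodendrocyte gene *olig1* was called lower, at 0.0320. The 5 genes of skin, muscle and meninges were *icn*, *DCN*, *col1a1a*, *COL1A2* and *COL1A1*. The muscle genes *ckma*, *myhz2* and *actc1b* and the keratin genes *krt4*, *krt5* and *krt91* were not called. Of 6 erythrocyte genes, 0 were called by edgeR and 0 by DESeq2, and 0 had an unadjusted *p*-value below 0.05, with a sum of 67.5 to 83.6 against 60.9 to 81.8 CPM. In bulk tissue, more cells of a type and more RNA per cell cannot be told apart. Injured replicates 1 and 3 stand apart by genes of the pineal organ and photoreceptors, of which 13 of 15 were called higher, with summed levels of 211 and 478 CPM, against 15.8 CPM in injured replicate 2 and 12.6 to 14.8 CPM in control hemispheres. Of 10 habenular genes tested, *TCF7L2* was called higher and none lower (221 to 252 against 189 to 247 CPM), while *KCTD8* was called lower with the block, at 0.00122. Injured replicate 1 also held 2.03 CPM of *POU4F1*, a gene of habenular neurons that was not tested, against 0.0240 to 0.0960 CPM in the other 5 libraries. In this list *TCF7L2*, *kiss1*, *GPR151*, *AOC1*, *tac3a* and a copy of *SLC5A7* were also highest in that library. *CHRNA5*, *CHRNB4*, *KCTD8*, *kctd12.2* and the other copy of *SLC5A7* were not.

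Of the 100 guidance genes, 99 passed the filter on low counts. The exception was *ntn5*, with 0 reads in each control library and 1, 1 and 2 reads in injured replicates 1, 2 and 3, within the 3 counts that a count of 0 allows. Upon injury, 12 guidance genes were called higher and 6 lower, or 18.2% of those tested. Over all genes tested, 16.5% were called, 11.6% higher and 4.82% lower. In this fit, which does not use the pairing described below, the guidance genes, with 6.06% lower, lie near this background. The genes called higher were *sema4aa*, *plxnd1*, *sema6ca*, *ephb4b*, *NEO1*, *ntn2*, *robo4*, both copies of *PLXNB1*, *SEMA3C*, *sema3gb* and *SEMA6D*. The genes called lower were *EPHA6*, *sema3h*, *sema3aa*, *EFNA1*, *PLXNA1* and *PLXNA2*. For *NEO1*, *EFNA1* and *PLXNA1* this holds for 1 of 2 copies.

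Most changes were small. The median absolute log2 fold change was 0.159 over the guidance genes and 0.156 over all genes, and 69.7% of the guidance genes and 66.5% of all genes lay within 0.25 of 0. The signed median, which depends on the scaling and does not measure size, was 0.00 over the guidance genes and 0.00 over all genes. Only *sema4aa*, *plxnd1* and *sema6ca* changed more than 1.5-fold among the called genes. The lowest log2 fold change among the guidance genes tested was -0.35, in a copy of *SEMA3F* that was not called. The conditions did not overlap for 38 guidance genes, 22 of them higher and 16 lower upon injury, which is 38.4% of those tested and compares with 35.8% of all genes. All 18 called genes are among these 38. A call with 3 libraries per condition nearly requires this, so that it is no separate support for the calls. At an unadjusted *p*-value below 0.05 stood 35 guidance genes, 19 higher and 16 lower, against 30.5%, 18.6% and 12% of all genes. DESeq2 called 25, of which 14 were higher and 11 lower, against 21.7%, 13.3% and 8.41% of all genes. These include all 18 called by edgeR. The others were *SEMA3B* and *PLXNC1*, higher, and *sema6bb*, *plxnb2b* and 1 copy each of *SEMA3F*, *EPHB3* and *PLXNA1*, lower. With the Bonferroni adjustment DESeq2 called 6, of which 4 were higher and 2 lower, against 5.88%, 4.71% and 1.16%.

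Same-numbered libraries of the 2 conditions deviated together. With the replicate number as a block in edgeR, 48 guidance genes were called, 20 higher and 28 lower. These are 48.5%, 20.2% and 28.3% of those tested, against 36.1%, 19.9% and 16.2% of all genes. In this fit the share called lower thus lay above that of all genes, and the share called higher near it. The background of all genes was not matched to the guidance genes for read counts, and this difference was not tested. The 48 genes include all 18 called without the block. The split thus changed from 66.7% to 41.7% higher. Over all genes it shifted the same way, from 2628 higher of 3715 called without the block to 4490 of 8141 with it. The 30 genes that edgeR called only with the block were 8 higher and 22 lower, and the matching share of all genes was not computed. All 30 moved the same way in each of the 3 same-numbered pairs. A call with the block nearly requires this, so that it is no separate support for these calls. In all 3 pairs, 32.3% of the guidance genes were higher and 41.4% lower in the injured hemisphere, against 31.5% and 31.6% of all genes. Scaling by library size alone, which shifted the median of all genes to 0.05, gave 15 higher and 4 lower guidance genes, or 78.9% higher, beside 15.6% of all genes called, 13.5% higher and 2.08% lower.

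In the fits that leave out 1 library, fewer genes were called in all but 1 of them. The numbers of guidance genes called were 9, 15 and 9 without control replicates 1, 2 and 3, beside 7.8%, 10.4% and 7.91% of all genes. Leaving out injured replicates 1, 2 and 3, one at a time, gave 19, 9 and 11 guidance genes, beside 13.2%, 9.7% and 10.3% of all genes. No count of guidance genes was tested against this background. With the Bonferroni adjustment edgeR called 0 guidance genes, beside 0.226% of all genes. Of the 18 genes, 7 were called in each of the 6 fits without 1 library, namely *sema4aa*, *plxnd1*, *sema3h*, *NEO1*, both copies of *PLXNB1* and *sema3aa*. Without the 2 libraries with high counts of pineal genes, injured replicates 1 and 3, edgeR called 6 of the 12 higher and 2 of the 6 lower genes, against 7.46%, 6.22% and 1.25% of all genes called in all, higher and lower. The 8 genes were *sema4aa*, *plxnd1*, *NEO1*, 1 copy of *PLXNB1*, *ephb4b*, *robo4*, *EPHA6* and *sema3h*. In this fit the lone injured library is assumed to vary like the control libraries.

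**Figure D1:**
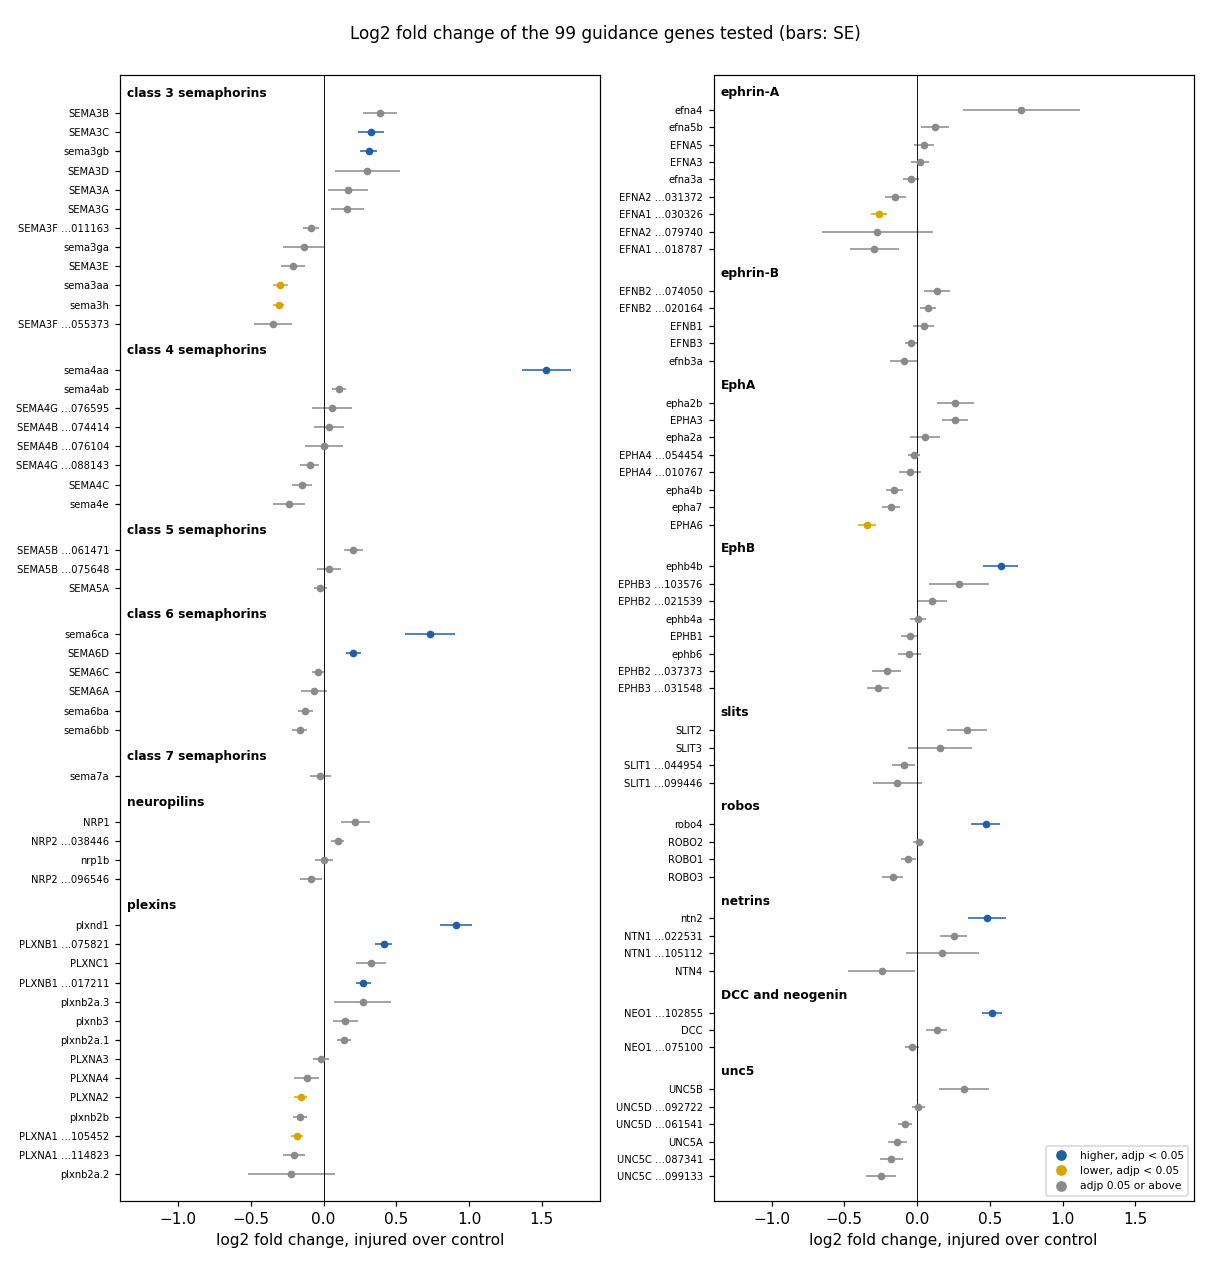
Log2 fold changes of injured over control hemispheres for the 99 guidance genes tested, by class, with bars for the SE. Blue points are the 12 genes called higher, ochre points the 6 called lower and grey points the others. Most points lie within 0.25 of 0, and *sema4aa* lies farthest from it, at 1.53. Digits after a name are the end of the Ensembl identifier where 2 genes share a name.

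Class 3 semaphorins are secreted and mostly repel growth cones through neuropilin and plexin complexes. Of 12 genes, 2 were called higher, 2 lower and 8 in neither direction. Expression of *sema3h* (ENSDARG00000042616), which had the highest CPM of the class, was 117, 113 and 113 CPM in control and 94.4, 91.6 and 91.0 CPM in injured hemispheres. The 3 injured libraries lay close together and below all controls. Its log2 fold change was -0.31 (adjp = 0.00330, SE 0.038) and ranged over -0.33 to -0.29 in the 6 fits without 1 library. For *sema3aa* (ENSDARG00000019235), a copy of the gene for semaphorin 3A, which collapses growth cones, expression was 76.2, 79.3 and 69.99 CPM in control and 61.9, 61.7 and 59.99 CPM in injured hemispheres. All injured libraries were again lower, with a log2 fold change of -0.30 (adjp = 0.0123, SE 0.054). The other copy, *SEMA3A* (ENSDARG00000042210), was at 6.58, 7.11 and 5.74 CPM in control and 6.06, 8.31 and 7.42 CPM in injured hemispheres, where the libraries overlapped, with 0.17 (adjp = 0.485, SE 0.14).

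Transcripts of *sema3gb* (ENSDARG00000013607) were at 18.1, 17.7 and 17.2 CPM in control and 22.9, 20.9 and 21.8 CPM in injured hemispheres. This increase, 0.31 (adjp = 0.0147, SE 0.059) on the log2 scale, lost its call at 0.0571 (control 3). *SEMA3C* (ENSDARG00000034300), a class 3 ligand known from heart and vessel development in mammals, was at 4.32, 4.13 and 4.198 CPM in control and 5.13, 5.34 and 5.39 CPM in injured hemispheres. Its libraries did not overlap, and a log2 fold change of 0.33 (adjp = 0.0469, SE 0.089) resulted. The call was lost whichever library was left out, at 0.107 (control 1), 0.134 (control 2), 0.127 (control 3), 0.0839 (injured 1), 0.127 (injured 2) and 0.119 (injured 3), with RLE scaling, at an adjusted *p*-value of 0.0521, and without the low-count filter, at 0.0709.

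The gene of this class with the largest log2 fold change was *SEMA3B* (ENSDARG00000011672), at 8.97, 9.03 and 7.01 CPM in control and 11.8, 10.7 and 10.2 CPM in injured hemispheres. The injured libraries lay above all controls, but the log2 fold change of 0.39 (adjp = 0.0622, SE 0.12) missed the threshold, and edgeR with the block gave an adjusted *p*-value of 0.00601. One copy of *SEMA3F* (ENSDARG00000055373) was lower in all injured libraries, at 10.2, 12.7 and 13.9 CPM against 14.5, 17.6 and 14.8 CPM in control hemispheres. Its log2 fold change was -0.35 (adjp = 0.113, SE 0.13), with 0.0196 under the block. *SEMA3E*, whose mouse protein binds plexin D1 directly, had a log2 fold change of -0.21 (adjp = 0.133, SE 0.082), and 0.00549 under the block. In *SEMA3D*, injured replicate 3 stood above the others, with 4.11, 4.77 and 7.55 CPM in injured and 4.58, 4.62 and 4.09 CPM in control hemispheres. For the other copy of *SEMA3F* (ENSDARG00000011163) the log2 fold change was -0.09 (adjp = 0.322, SE 0.052), which was called with the block, at 0.0413. *sema3ga* and *SEMA3G*, which share a base name with the called *sema3gb*, had -0.14 (adjp = 0.572, SE 0.14) and 0.16 (adjp = 0.397, SE 0.115). Neither was called with the block.

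Class 4 semaphorins are membrane proteins that signal through B-type plexins, and some of them act between immune cells. Among the 8 genes, *sema4aa* (ENSDARG00000077103) was called. It had 1.70, 2.53 and 2.36 CPM in control and 5.70, 6.72 and 6.69 CPM in injured hemispheres, on average 2.196 ± 0.441 and 6.37 ± 0.580 CPM (SD, n = 3 each). Every injured library held more than 2 times the CPM of every control library. The log2 fold change of 1.53 (adjp = 0.00233, SE 0.17) was the largest of all guidance genes tested and ranged over 1.38 to 1.65 in the 6 fits without 1 library. Semaphorin 4A is known in mammals from dendritic cells and T cell activation. The other copy, *sema4ab*, was at 44.4, 48.9 and 48.0 CPM in control and 50.7, 50.7 and 50.9 CPM upon injury, a log2 fold change of 0.11 (adjp = 0.201, SE 0.050). The injured libraries of *sema4ab* lay above all controls by a small margin.

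Both copies of *SEMA4B* had a log2 fold change between -0.00 and 0.03, and those of *SEMA4G* were 0.06 and -0.10. *SEMA4C* (ENSDARG00000079611), the gene with the highest CPM of class 4, was at 72.3, 68.3 and 65.8 CPM in control and 68.2, 58.7 and 59.5 CPM in injured hemispheres. Replicate 1 was the highest library in both conditions. Its log2 fold change of -0.15 (adjp = 0.205, SE 0.070) was called with the block, at 0.0159, and without injured replicate 1, at 0.0497. *sema4e* was at 3.81, 4.29 and 4.24 CPM in control and 3.51, 3.70 and 3.25 CPM upon injury, a log2 fold change of -0.24 (adjp = 0.200, SE 0.11).

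Classes 5, 6 and 7 are membrane-bound. None of the 3 class 5 genes was called by edgeR or DESeq2, with 1 at an unadjusted *p*-value below 0.05, and *SEMA5A*, the one with the highest CPM, was at 132, 128 and 127 CPM in control and 132, 125 and 124 CPM in injured hemispheres, with -0.02 (adjp = 0.786, SE 0.042). One copy of *SEMA5B* (ENSDARG00000061471) was higher in all injured libraries, at 28.0, 25.5 and 26.4 against 24.6, 22.8 and 21.9 CPM, with a log2 fold change of 0.20 (adjp = 0.0786, SE 0.066) and 0.0101 under the block, and the other copy had 0.04 (adjp = 0.823, SE 0.085). In class 6, whose proteins bind A-type plexins, 2 of 6 genes were called, both higher. *sema6ca* (ENSDARG00000002748) had few reads, at 1.89, 2.51 and 1.76 CPM in control and 3.11, 3.80 and 3.35 CPM in injured hemispheres, with no overlap. It rose by a log2 fold change of 0.73 (adjp = 0.0286, SE 0.17), a call lost at 0.0960 (control 1), 0.0958 (control 3), 0.0860 (injured 2) and 0.0668 (injured 3).

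*SEMA6D* (ENSDARG00000011533) was at 41.8, 45.5 and 43.7 CPM in control and 51.3, 50.6 and 49.2 CPM in injured hemispheres. All injured libraries were above the highest control, by 0.21 (adjp = 0.0306, SE 0.049) on the log2 scale, a call lost at 0.104 (control 1), 0.0955 (control 3), 0.0801 (injured 1), 0.0871 (injured 2) and 0.0580 (injured 3). None of the other class 6 genes was called by edgeR, and DESeq2 also called *sema6bb*, at an adjusted *p*-value of 0.0233. *SEMA6C* (ENSDARG00000000189), the copy of *sema6ca* and the gene with the highest CPM of the class, was at 134, 127 and 125 CPM in control and 129.9, 126 and 119.7 CPM in injured hemispheres, with -0.04 (adjp = 0.682, SE 0.047). These libraries overlapped, as did those of *SEMA6A*, with -0.07 (adjp = 0.670, SE 0.089). *sema6ba* and *sema6bb* were lower in all injured libraries, with -0.13 (adjp = 0.148, SE 0.052) and -0.16 (adjp = 0.0725, SE 0.051), and 0.0471 and 0.0118 under the block. *sema7a*, the one class 7 gene, whose protein is anchored in the membrane by a lipid, was at 23.0, 23.3 and 21.1 CPM in control and 22.9, 23.0 and 20.3 CPM in injured hemispheres. These libraries overlapped, with a log2 fold change of -0.02 (adjp = 0.883, SE 0.074).

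Neuropilins bind class 3 semaphorins and also vascular endothelial growth factor. None of the 4 genes was called by edgeR, where none had an unadjusted *p*-value below 0.05 either and DESeq2 called none. *NRP2* (ENSDARG00000038446), with the highest CPM of the class, was at 177, 189.8 and 188 CPM in control and 203, 198 and 192 CPM in injured hemispheres. All injured libraries were above the controls by a small margin, at 0.10 (adjp = 0.181, SE 0.043) on the log2 scale. The other copy was at 141, 140.2 and 125 CPM in control and 139, 128 and 116 CPM in injured hemispheres, with overlap and -0.09 (adjp = 0.509, SE 0.076). *NRP1* (ENSDARG00000102153), *nrp1a* by exclusion of *nrp1b*, was at 43.4, 45.7 and 37.0 CPM in control and 53.7, 49.1 and 43.8 CPM in injured hemispheres. Replicate 3 was lowest in both conditions, the injured library was higher in each pair, and the log2 fold change of 0.22 (adjp = 0.194, SE 0.0996) was called with the block, at 0.0112. For *nrp1b* it was 0.00 (adjp = 0.980, SE 0.063).

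Plexins are the signalling receptors of semaphorins, and their 14 genes moved in both directions, with 3 called higher, 2 lower and 9 in neither direction. *plxnd1* (ENSDARG00000086057), a receptor known from endothelial cells, was at 5.78, 4.87 and 4.86 CPM in control and 8.75, 9.79 and 10.5 CPM in injured hemispheres. The lowest injured library was well above the highest control, and the log2 fold change was 0.91 (adjp = 0.00315, SE 0.11), and 0.85 to 0.99 in the 6 fits without 1 library. Both copies of *PLXNB1*, a B-type plexin, rose as well. The first copy of *PLXNB1* (ENSDARG00000075821, *plxnb1a* in the tables of the study) was at 68.0, 63.9 and 61.4 CPM in control and 88.8, 80.1 and 88.4 CPM in injured hemispheres. The second (ENSDARG00000017211, *plxnb1b*) was at 185, 203 and 190.4 CPM in control and 227, 242 and 230.1 CPM in injured hemispheres. Plexin B1 is the receptor of semaphorin 4D in mammals. Neither copy overlapped between conditions, and the log2 fold changes were 0.41 (adjp = 0.00571, SE 0.060) and 0.27 (adjp = 0.0111, SE 0.049). Without injured replicates 1 and 3 together, the log2 fold change was 0.32 for the first and 0.33 for the second.

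The called decreases were in A-type plexins, the partners of neuropilins. *PLXNA1* (ENSDARG00000105452) was at 227, 235 and 231 CPM in control and 212, 198 and 200.5 CPM in injured hemispheres. It was lower in every injured library, at -0.18 (adjp = 0.0235, SE 0.040) on the log2 scale, a call lost at 0.0647 (control 1), 0.0819 (control 2), 0.0764 (control 3), 0.0767 (injured 2) and 0.0787 (injured 3). The other copy (ENSDARG00000114823) was at 117, 107 and 104 CPM in control and 105, 90.4 and 90.1 CPM in injured hemispheres. Injured replicate 1 overlapped the controls there, and the log2 fold change of -0.20 (adjp = 0.108, SE 0.074) was called with the block, at 0.00220. *PLXNA2* (ENSDARG00000060372) was at 176, 171 and 162 CPM in control and 154, 149 and 152 CPM in injured hemispheres. No injured library reached the controls, and the change of -0.16 (adjp = 0.0467, SE 0.043) lost its call at 0.151 (control 1), 0.130 (control 2), 0.0678 (injured 1), 0.131 (injured 2) and 0.119 (injured 3). It was also lost without the low-count filter, at an adjusted *p*-value of 0.0558, and with genes above a mean count of 100 alone, at 0.0713. Scaled by library size alone, neither called A-type plexin was called, at an adjusted *p*-value of 0.0709 for *PLXNA1* and 0.163 for *PLXNA2* in edgeR.

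The plexin with the highest CPM, *PLXNA3*, was at 264, 267 and 248 CPM in control and 275, 251 and 243 CPM upon injury, a log2 fold change of -0.02 (adjp = 0.869, SE 0.055). *PLXNC1*, the receptor of semaphorin 7A, was higher in all injured libraries, at 26.9, 30.02 and 26.0 against 20.3, 25.5 and 20.5 CPM. Its margin over the highest control was small, and the log2 fold change of 0.32 (adjp = 0.0763, SE 0.10) was called with the block, at 0.00236. Only with the block did edgeR also call *plxnb2a.1* and *plxnb3* higher and *plxnb2b* and *PLXNA4* lower, with log2 fold changes of 0.14, 0.15, -0.16 and -0.12. Of these, DESeq2 called *plxnb2b*, at an adjusted *p*-value of 0.0162. The neighbouring copies *plxnb2a.2* and *plxnb2a.3* had 0.252 to 0.415 and 1.51 to 2.49 CPM over all libraries, and how reads were divided between these copies was not tested.

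**Figure D2:**
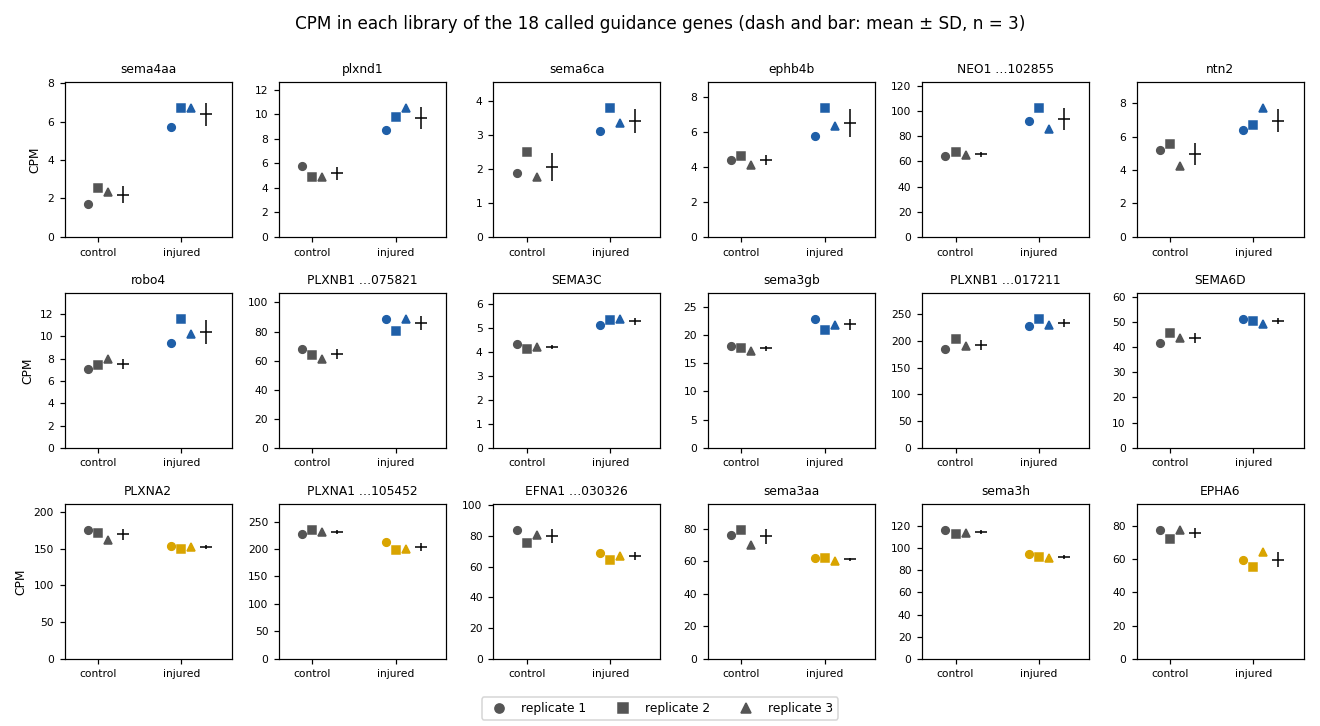
CPM in each library of the 18 called guidance genes, with control libraries in grey and injured libraries in blue (called higher) or ochre (called lower). Symbols mark the replicate number, and dash and bar give mean ± SD of 3 libraries. In no panel do the 2 conditions overlap, which a call nearly requires. *sema4aa* had 1.70 to 2.53 CPM in control and 5.70 to 6.72 CPM in injured hemispheres.

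Ephrin-A proteins are tethered to the membrane by a lipid and bind mostly EphA receptors. Of 9 genes, 1 was called, and it was lower. This copy of *EFNA1* (ENSDARG00000030326, *efna1a* in the tables of the study) was at 83.9, 75.2 and 80.6 CPM in control and 69.0, 64.0 and 66.9 CPM in injured hemispheres. The highest injured library was below the lowest control, at -0.26 (adjp = 0.0197, SE 0.055) on the log2 scale, a call lost at 0.0681 (control 1), 0.0706 (control 3), 0.0673 (injured 2) and 0.0634 (injured 3). The other copy (ENSDARG00000018787), with the highest CPM of the class, was at 171, 128 and 171 CPM in control and 139.9, 98.5 and 145 CPM in injured hemispheres. Replicate 2 was lowest in both conditions, the injured library was lower in each pair, and the libraries overlapped. Its log2 fold change of -0.29 (adjp = 0.288, SE 0.17) differed little from that of the called copy, and edgeR with the block gave 0.00102.

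The largest log2 fold change among ephrin-A genes was in *efna4*, a gene near the limit of detection at 0.154, 0.144 and 0.0777 CPM in control and 0.142, 0.203 and 0.279 CPM in injured hemispheres. These values overlapped, with 0.72 (adjp = 0.285, SE 0.40). One copy of *EFNA2* (ENSDARG00000031372) was lower in all injured libraries, with -0.15 (adjp = 0.230, SE 0.075) and 0.0385 under the block. For the 2 genes each of *EFNA3* and *EFNA5*, the log2 fold changes lay between -0.04 and 0.12, and for the other *EFNA2* copy the change was -0.27 (adjp = 0.698, SE 0.38) at under 1 CPM.

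Ephrin-B proteins span the membrane and bind EphB receptors and EphA4. None of the 5 genes was called by edgeR or by DESeq2, none had an unadjusted *p*-value below 0.05, and no gene separated the conditions. *EFNB2* (ENSDARG00000020164), known from arteries and from axon sorting, was at 173, 192 and 185 CPM in control and 184, 205 and 190.2 CPM upon injury, a log2 fold change of 0.08 (adjp = 0.433, SE 0.057). The other copy was at 12.3, 13.0 and 12.4 and 12.4, 13.8 and 15.4 CPM, with 0.14 (adjp = 0.355, SE 0.090). Log2 fold changes of the class lay between -0.09 and 0.14.

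Of 8 EphA genes, 1 was called lower and none higher. *EPHA6* (ENSDARG00000022971) was at 77.3, 72.2 and 77.6 CPM in control and 59.2, 55.4 and 64.2 CPM in injured hemispheres. Injured replicate 2 was the lowest library and no injured library reached the controls. This change of -0.35 (adjp = 0.0123, SE 0.063) on the log2 scale lost its call at 0.0514 (control 3). The copy of *EPHA4* with the highest CPM of the class (ENSDARG00000054454), a receptor that reads both ephrin classes, was at 315, 295 and 303 CPM in control and 303, 302 and 294 CPM in injured hemispheres. Here the conditions overlapped throughout, with a log2 fold change of -0.02 (adjp = 0.784, SE 0.039). *epha7* was lower and *EPHA3* higher in all injured libraries, with -0.18 (adjp = 0.0994, SE 0.062) and 0.26 (adjp = 0.0979, SE 0.091), and 0.0174 and 0.00582 under the block. *epha4b* was called lower with the block, at 0.0138, with a log2 fold change of -0.16. For *epha2a*, *epha2b* and the other copy of *EPHA4* the log2 fold changes were 0.06, 0.26 and -0.05, with no call in either fit.

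Of 8 EphB genes, 1 was called higher and none lower. *ephb4b* (ENSDARG00000027112), a copy of the gene for EphB4, which marks venous endothelium, was at 4.41, 4.66 and 4.09 CPM in control and 5.80, 7.40 and 6.38 CPM in injured hemispheres. The increase was seen in all injured libraries and was largest in replicate 2. On the log2 scale it rose by 0.57 (adjp = 0.0188, SE 0.12), a call lost at 0.0641 (control 1), 0.0728 (control 3) and 0.0539 (injured 2). The other copy, *ephb4a*, was at 34.1, 33.4 and 36.5 CPM in control and 33.0, 35.8 and 35.6 CPM in injured hemispheres, with 0.01 (adjp = 0.968, SE 0.058). *EPHB3* (ENSDARG00000031548), the EphB gene with the highest CPM, was at 173, 152 and 172 CPM in control and 145, 124 and 143 CPM in injured hemispheres. All injured libraries were lower, replicate 2 most of all, and the log2 fold change of -0.27 (adjp = 0.0564, SE 0.078) was called with the block, at 5.17e-04. It was also called without control replicate 2, at 0.0464. The 2 copies of *EPHB2* had log2 fold changes of 0.10 and -0.21, and 0.0387 and 0.0212 under the block. For *EPHB1*, *ephb6* and the other copy of *EPHB3* they were -0.05, -0.05 and 0.29, with no call in either fit.

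Slits are large secreted repellents, and none of the 4 genes was called by edgeR or by DESeq2. An unadjusted *p*-value below 0.05 was found for *SLIT2* alone. *SLIT1* (ENSDARG00000044954), with the highest CPM of the class, was at 168, 144 and 155 CPM in control and 160.2, 132 and 146 CPM in injured hemispheres. Its other copy was at 12.09, 17.3 and 14.2 CPM in control and 10.5, 14.99 and 14.1 CPM in injured hemispheres. Both overlapped between conditions, with log2 fold changes of -0.09 (adjp = 0.506, SE 0.082) and -0.14 (adjp = 0.652, SE 0.17), and the first was called with the block, at 0.0293. *SLIT2* (ENSDARG00000004246) was at 24.7, 30.7 and 31.3 CPM in control and 44.1, 32.7 and 33.3 CPM in injured hemispheres. Injured replicate 1 was far above the others, and the injured replicates 2 and 3 exceeded the highest control by little. The log2 fold change was 0.34 (adjp = 0.141, SE 0.14), and 0.109 under the block. *SLIT3* had 0.16 (adjp = 0.695, SE 0.22).

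Among the 4 robo genes, 1 was called, and it was higher. *robo4* (ENSDARG00000009387), the family member known from endothelial cells, was at 7.11, 7.41 and 7.97 CPM in control and 9.40, 11.6 and 10.2 CPM in injured hemispheres. All control libraries lay below all injured ones, and the increase of 0.47 (adjp = 0.0193, SE 0.098) on the log2 scale lost its call at 0.0725 (control 1), 0.0630 (control 2), 0.0518 (injured 2) and 0.0510 (injured 3). None of the other robo genes was called. *ROBO2*, with the highest CPM of the class, was at 196, 202 and 209 CPM in control and 204, 199 and 208 CPM upon injury, a log2 fold change of 0.01 (adjp = 0.911, SE 0.040). For *ROBO1* it was -0.06 (adjp = 0.511, SE 0.052). *ROBO3*, which in mammals lets axons cross the midline, was at 190.0, 176 and 170.1 CPM in control and 175, 149 and 153 CPM in injured hemispheres. Injured replicate 1 overlapped the controls, and the log2 fold change of -0.17 (adjp = 0.167, SE 0.072) was called with the block, at 0.00645, and without injured replicate 1, at 0.0398.

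Netrins are secreted cues related to laminins. Of the 4 genes tested, *ntn2* (ENSDARG00000076748) was called. It was at 5.18, 5.53 and 4.25 CPM in control and 6.42, 6.71 and 7.73 CPM in injured hemispheres, with no overlap. An increase of 0.48 (adjp = 0.0445, SE 0.13) on the log2 scale was called, but in none of the 6 fits without 1 library, at 0.104 (control 1), 0.0595 (control 2), 0.118 (control 3), 0.0609 (injured 1), 0.0909 (injured 2) and 0.124 (injured 3). One copy of *NTN1* (ENSDARG00000022531), the classical attractant of commissural axons, was higher in all injured libraries, at 10.3, 9.68 and 11.7 against 8.97, 9.27 and 8.30 CPM, with a log2 fold change of 0.25 (adjp = 0.111, SE 0.092), and the other copy had 0.17 (adjp = 0.712, SE 0.25). *NTN4*, with the highest CPM of the netrins, varied widely between libraries, at 22.5, 14.2 and 18.3 CPM in control and 18.4, 10.8 and 17.3 CPM in injured hemispheres. Replicate 2 was lowest in both conditions, and the log2 fold change of -0.24 (adjp = 0.546, SE 0.23) was called with the block, at 0.0223.

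Of the receptors for netrins, 1 neogenin gene rose. *NEO1* (ENSDARG00000102855, *neo1a* in the tables of the study) was at 64.3, 67.6 and 65.1 CPM in control and 92.4, 103 and 85.6 CPM in injured hemispheres, on average 65.7 ± 1.73 and 93.6 ± 8.60 CPM (SD, n = 3 each). Control libraries lay within 4 CPM of each other, and all injured libraries were well above them. The log2 fold change of 0.51 (adjp = 0.00440, SE 0.069) ranged over 0.44 to 0.57 in the 6 fits without 1 library. Neogenin is a relative of DCC that binds netrins and repulsive guidance molecules. The other copy (ENSDARG00000075100) was at 37.4, 40.1 and 39.3 CPM in control and 37.1, 38.1 and 38.7 CPM upon injury, a log2 fold change of -0.04 (adjp = 0.675, SE 0.048). *DCC*, the attractive netrin receptor, was at 13.2, 11.8 and 13.0 CPM in control and 14.3, 13.4 and 14.0 CPM in injured hemispheres. Its injured libraries exceeded the controls by small margins, with 0.13 (adjp = 0.247, SE 0.070).

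None of the 6 unc5 genes, the repulsive netrin receptors, was called by edgeR or by DESeq2, and 1 of them, a copy of *UNC5C* (ENSDARG00000099133), had an unadjusted *p*-value below 0.05. *UNC5B*, known also from vessels, had the largest log2 fold change, at 28.2, 32.0 and 25.7 CPM in control and 26.1, 41.9 and 39.4 CPM in injured hemispheres. Injured replicate 1 fell within the range of the controls, and the log2 fold change was 0.32 (adjp = 0.264, SE 0.17), or 0.50 (adjp = 0.0239) without that library. *UNC5D* (ENSDARG00000061541), with the highest CPM of the class, was at 84.0, 88.8 and 91.1 CPM in control and 79.6, 83.0 and 86.2 CPM in injured hemispheres. Its log2 fold change was -0.09 (adjp = 0.302, SE 0.050), and that of the other copy 0.01 (adjp = 0.923, SE 0.045). Under the block, this gene, *UNC5A* and both copies of *UNC5C* were called lower, with log2 fold changes of -0.09, -0.14, -0.18 and -0.25.

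Summed over each class, the mean level changed by -12.9% to 24.0%. Over whole systems of ligands and receptors, the ephrin sum changed by -6.15% and the netrin sum by 5.84%, both without overlap between conditions. The rise of the netrin sum, from a mean of 398 to 421 CPM, rests on a single neogenin copy. *NEO1* (ENSDARG00000102855) rose by more than the whole sum, from a mean of 65.7 to 93.6 CPM. Taken without this copy, the mean netrin sum was slightly lower upon injury. The semaphorin and slit sums changed by -1.56% and -3.24%, with overlap. The sum of all 100 genes was 5702 to 5901 CPM in control and 5531 to 5814 CPM in injured hemispheres. Ligands summed to 2050 ± 45.1 and 1963 ± 65.2 CPM and receptors to 3739 ± 65.7 and 3680 ± 90.3 CPM in control and injured hemispheres (SD, n = 3 each). The sums did not overlap between conditions for 4 classes, while for others they moved one way within the same-numbered pairs. The DCC and neogenin genes summed to 115, 119.5 and 117 CPM in control and 144, 154 and 138 CPM in injured hemispheres, a change of 24.0%. Class 3 semaphorins summed to 447, 432 and 417 CPM in control and 392, 382 and 388 CPM in injured hemispheres, a change of -10.2%. The EphA and EphB sums changed by -5.84% and -8.24%. Ephrin-A genes summed to 355, 307 and 350.0 CPM in control and 308, 265 and 309.9 CPM in injured hemispheres, a change of -12.9%. Replicate 2 was low in both conditions, so that the ranges overlapped, but the injured library was lower in each same-numbered pair. This was also so for class 7 semaphorins, robo and unc5 genes, and for class 3 semaphorins, EphA and EphB genes. In each pair the injured library was higher for class 5 semaphorins, ephrin-B genes and the DCC and neogenin genes. These sums are dominated by the genes with most reads and were not tested.

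**Figure D3:**
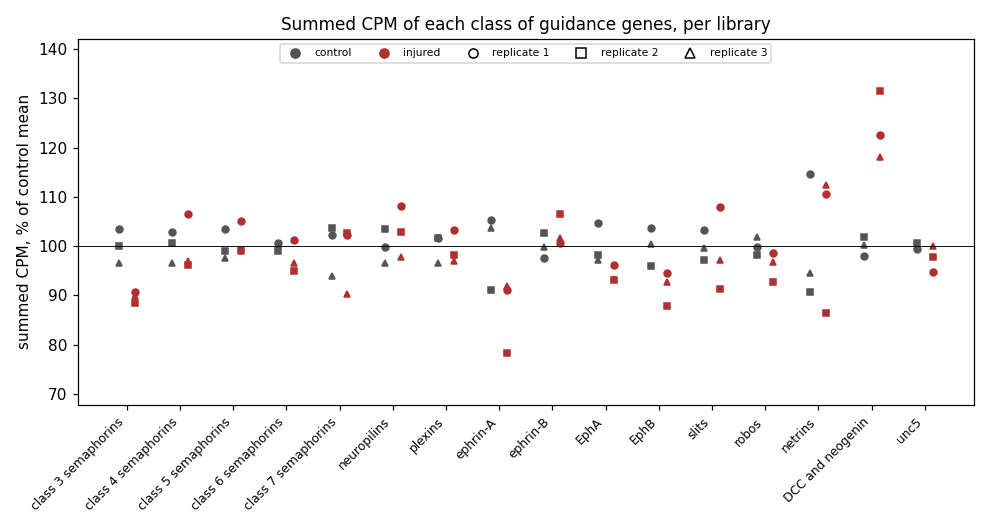
Summed CPM of the genes of each class in each library, as a percentage of the mean of the 3 control libraries of that class. Grey points are control and red points injured libraries, with a symbol for each replicate number. DCC and neogenin genes lie above the controls in all injured libraries, class 3 semaphorins, EphA and EphB genes below them, and the other 12 classes overlap.

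Many of these genes exist as 2 copies, and the ratio of their reads within a library does not depend on how libraries are scaled. Only base names with 2 genes tested were compared, so that *SEMA3G*, *sema3ga* and the called *sema3gb* were left out. The 2 genes named *EPHA4* were compared without *epha4b*. Of 28 pairs with the same base name, 6 had ratios that did not overlap between the conditions. The exact permutation test, two-sided, cannot go below 0.1 with 3 values a condition, which these 6 pairs reached, and after Benjamini-Hochberg adjustment over the 28 pairs this is 0.467. Neither this test nor the overlap of the conditions takes account of the replicate numbers. The reads of *sema4aa* relative to *sema4ab* changed by 1.45 log2 units, from -4.44 ± 0.23 to -3.00 ± 0.13 (SD, n = 3 each). The ratio of *SEMA3A* to *sema3aa* changed by 0.45. The ratios of *SEMA6C* to *sema6ca*, of *EPHB3* (ENSDARG00000031548) to the other copy, of *ephb4a* to *ephb4b* and of *NEO1* (ENSDARG00000075100) to the other copy changed by -0.78, -0.59, -0.56 and -0.54 log2 units. In 5 of these 6 pairs the copy with fewer reads gained on the other, whereas in *NEO1* it was the copy with more reads. For *EPHB3* the conditions were apart by little, with 5.83 as the highest injured and 5.85 as the lowest control value. The ratios of the copies of *PLXNB1*, *PLXNA1* and *EFNA1*, of which at least 1 was called, overlapped between the conditions, with differences of -0.14, 0.02 and -0.04 log2 units (exact permutation *p* = 0.2, 0.7 and 0.8). Values of this size do not show that the copies moved alike, and for *PLXNB1* the ratio was lower in the injured library of each same-numbered pair. The ratio of the copies of *EPHB2*, which the block called in opposite directions, also overlapped (exact permutation *p* = 0.3). It was higher in the injured library of each same-numbered pair. For how many other copies the ratio moved one way in each pair was not counted.

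**Figure D4:**
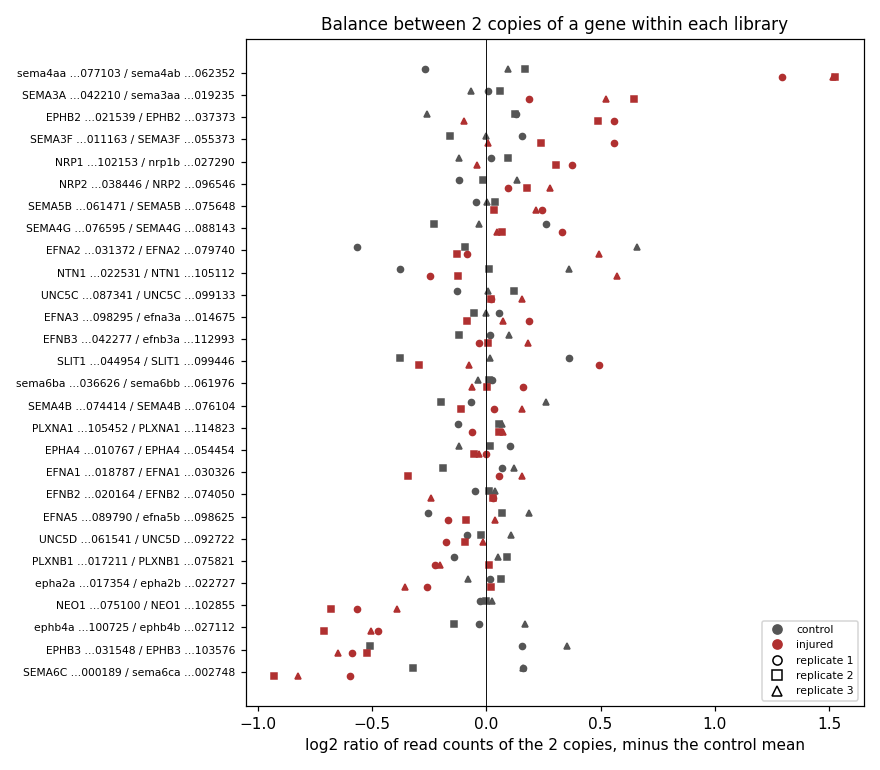
Log2 ratio of the read counts of 2 copies of a gene in each library, after subtraction of the mean of the 3 control libraries, for 28 pairs. Grey points are control and red points injured libraries. The pair *sema4aa* and *sema4ab* shifted most, by 1.45, and *SEMA6C* and *sema6ca* shifted most in the other direction, by -0.78.

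Some called genes are known from cells other than neurons, and the markers of those cells moved in the same libraries. *plxnd1*, *robo4* and *ephb4b* are known from endothelial cells, and *sema4aa* from immune cells. Of other guidance genes named above for vessels, *SEMA3C* was called higher, a call lost whichever library was left out. None of the neuropilin genes was called, nor was *SEMA3E*, whose log2 fold change was -0.21. With the block, *SEMA3E* was called lower and *NRP1* (ENSDARG00000102153) higher. *EFNB2* (ENSDARG00000020164) and *UNC5B* were not called, with log2 fold changes of 0.08 and 0.32. The copies *ephb4a* and *sema4ab*, which have more reads than *ephb4b* and *sema4aa*, had 0.01 and 0.11 and were not called. Of 14 endothelial markers tested, 8 were called higher, with a median log2 fold change of 0.44, and the summed level was 202, 199 and 204 CPM in control and 251, 276 and 259 CPM in injured hemispheres. The log2 fold changes of *robo4*, *ephb4b* and *plxnd1* were 0.47, 0.57 and 0.91. Injured replicate 2 was the highest library for *robo4*, *ephb4b* and the endothelial sum, and injured replicate 3 for *plxnd1*. The defining endothelial genes *cdh5*, *TIE1* and *kdrl* were present in all libraries, with log2 fold changes of 0.40, 0.61 and 0.26, and *kdrl* is also among the other guidance genes described last. The endothelial markers not called were *flt1*, *ERG*, *EGFL7*, *tek*, *plvapb* and *plvapa*, with log2 fold changes of 0.01, 0.05, 0.17, 0.30, 0.77 and 0.87. For *sema4aa*, the microglia and leukocyte markers had a median log2 fold change of 1.06, beside 1.53 for the gene itself, and 1 of these 24 markers, *lyz*, had no read in any library. The genes called lower, such as *sema3aa*, *EPHA6* and *PLXNA1*, stand beside neuronal markers with a median log2 fold change of -0.10, of which 8 of 19 were called lower. The part of these markers in the changes of the guidance genes was not tested.

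Guidance cues act through further ligands, co-receptors and intracellular effectors. Of 56 other ligands and co-receptors, all tested, 12 were called higher and 5 lower. Of 87 effectors, all tested, 16 were called higher and 7 lower. These shares, 30.4% and 26.4%, stand beside 16.5% of all genes and 18.2% of the guidance genes themselves, and the median log2 fold changes were -0.01 and -0.02. Both lists were chosen with earlier results of these data known. The first also holds genes of matrix, adhesion and vessels, such as *vcanb*, *ITGB1* and *kdrl*. The difference of these shares from that of all genes was not tested. Among the called genes, the largest increase was in *VAV3*, a guanine nucleotide exchange factor downstream of Eph receptors, at 2.57, 3.55 and 2.92 CPM in control and 5.59, 6.88 and 5.84 CPM in injured hemispheres. Its log2 fold change was 1.02 (adjp = 0.00616, SE 0.15). *vcanb*, a gene for the matrix proteoglycan versican, was at 14.2, 14.9 and 13.1 CPM in control and 25.6, 33.7 and 24.2 CPM in injured hemispheres, with 0.98 (adjp = 0.00407, SE 0.13). *draxinb*, a copy of the gene for Draxin, a secreted protein that binds netrin and DCC, was at 6.99, 6.27 and 6.12 CPM in control and 10.7, 12.4 and 11.1 CPM in injured hemispheres. It had a log2 fold change of 0.82 (adjp = 0.00243, SE 0.091). *PAK2*, a kinase activated by Rac and Cdc42, and *VASP*, which promotes actin filament growth, followed with 0.80 (adjp = 0.00334, SE 0.099) and 0.77 (adjp = 0.0432, SE 0.20).

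Among the called genes of both lists, the largest decrease was in *mical1*, whose protein oxidizes actin downstream of plexins, at 59.4, 61.2 and 55.5 CPM in control and 43.0, 49.6 and 43.6 CPM in injured hemispheres, with -0.37 (adjp = 0.0131, SE 0.069). *NGEF*, the Eph receptor exchange factor ephexin, had a log2 fold change of -0.35 (adjp = 0.0423, SE 0.093). Both *rtn4rl2a* and *rtn4rl2b*, of the Nogo receptor family, which limits axon growth in mammals, were lower in all injured libraries. Their log2 fold changes were -0.34 (adjp = 0.0156, SE 0.067) and -0.34 (adjp = 0.00880, SE 0.056). *triob*, a guanine nucleotide exchange factor downstream of DCC, had -0.24 (adjp = 0.0353, SE 0.060). With the block, 80 of the 143 genes were called, 39 higher and 41 lower, or 55.9% against 36.1% of all genes, where the fit without the block called 28 higher and 12 lower. Without single libraries, 14 to 32 were called, against 40 with all libraries, with 14 (control 1), 20 (control 2), 19 (control 3), 18 (injured 2) and 23 (injured 3) called when the library in parentheses was left out. Of all genes, 7.8% to 13.2% were called in the fits without a single library. Which of the other guidance genes named here kept their calls in these fits is not given.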

How the data were processed

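The authors mapped the reads to the zebrafish genome GRCz11 with STAR, kept the best mapping of a read with several, and deposited, per library, the read counts per Ensembl gene from HTSeq in union mode. Tool versions and the strand setting are not given in the sources used here, so overlapping and antisense genes, and near copies such as the 3 plxnb2a genes, are uncertain. Rows for reads on no gene or on several genes, 28.8% to 31.2% of each library, were left out. Gene names came from a table of Ensembl names, which held 29201 of 32520 identifiers. Names are printed as this table gives them, many in capitals, and both genes named *NEO1* were taken for neo1a and neo1b. No sequence is shown.

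Counts were tested with edgeR 4.0.16 in R 4.3.3 (TMM factors, filterByExpr, quasi-likelihood F-test of injured against control, Benjamini-Hochberg adjustment over 22558 genes). DESeq2 1.42.0 was an alternative, alone and with the Bonferroni adjustment of the study. Others were RLE and upper-quartile factors, library size alone, other low-count filters, each library left out, injured replicates 1 and 3 left out, and the replicate number as a block. Deviations from the condition means correlated at 0.519, 0.396 and 0.321 between same-numbered control and injured libraries and at -0.361 to -0.0832 between others. Since deviations within a condition sum to 0, the positive values push the others below 0, and these are no separate support. The pairing therefore comes from the replicate numbers and the correlation of same-numbered libraries, since the labels do not name the fish. Replicates of a condition were not duplicates, with a chi-square per degree of freedom of 15.3 or more. Ratios of 2 copies were compared by exact permutation tests. Of these tests, only the edgeR fit without the block was checked on simulated data. The simulation used independent libraries and planted larger changes than those of most called genes. It therefore does not check small changes or the pairing.

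The guidance genes, the lists of other guidance genes (ligands and co-receptors, effectors) and the marker lists (neurons, radial glia, oligodendrocytes, microglia and leukocytes, endothelium, erythrocytes, skin with muscle and meninges, pineal organ, habenula, telencephalon) were chosen with earlier results of these data known. Some markers of the pineal organ and the telencephalon are not reported here and were left out of the sums. Named genes are all called guidance genes, in each class the gene with the highest CPM and that with the largest log2 fold change, both copies where 1 was called, and the 5 largest called increases and decreases among other guidance genes. Further genes were named after their values were seen.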

Additional observations from a re-analysis of the deposited data

How the results depend on the processing

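No guidance gene that was called changed direction under any alternative. Against 18 called guidance genes, 12 higher and 6 lower, DESeq2 called 25, with 11 lower. With the Bonferroni adjustment, DESeq2 called 6, 4 higher and 2 lower, and 13 of the other guidance genes in place of 40, beside 5.88% of all genes. With the same adjustment edgeR called 0 guidance genes, 0 higher and 0 lower, and 0 of the other genes, beside 0.226% of all genes, where 35 guidance genes stood below 0.05 before adjustment. With the replicate block, edgeR called 48 guidance genes, 20 higher and 28 lower, and 80 of the other genes, and no gene called without the block lost its call. Without injured replicates 1 and 3 together it called 8, 6 higher and 2 lower, and 20 of the other genes. In the 6 fits that leave out 1 library, 9 to 19 guidance genes were called, 6 to 10 higher and 3 to 9 lower, and 14 to 32 of the other genes. Of all genes, 7.8% to 13.2% were called in these fits. Leaving out a library leaves fewer samples, and the cause of the other differences was not tested. Counts with RLE factors, upper-quartile factors, library size alone, no filter and a mean count above 100 were 18, 20, 19, 16 and 17, and 19 with the netrin-G genes added. Except for library size alone, with 15.6%, the share of all genes called was not computed for these settings. Their counts therefore show the spread between settings and cannot be set against all genes. The median log2 fold change of the guidance genes was 0.056 with library size alone, 0.023 with a mean count above 100, and -0.026 to 0.012 with each library left out. Genes near the limit of detection, such as *efna4*, *plxnb2a.2* and *ntn5*, allow no firm statement, and 3 libraries per condition limit the smallest exact p-value to 0.1.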
